A study of Mus musculus with 124 samples.

Results

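The translation initiation factors were taken as every gene whose name starts with Eif and a digit from 1 to 6, leaving out names that end in -ps. The rule used names only and no measured value, but it was set with earlier results of these data known. It gave 53 genes of 17108 named genes in the cortex table and 52 of 13338 in the liver table, out of 18238 gene names in either table. Eif5a2 is in the cortex table and not in the liver table, and the other 52 are in both. RNA of cerebral cortex and liver came from the same 62 mice, 1 library per mouse and tissue, and the values were log2 CPM (counts of a gene scaled to the total of its library, on a log2 scale). The 36 sleep-deprived (SD) mice lost the sleep of the first 6 h of light through gentle handling, between T24 and T30, where T counts hours and T0 opens the control day. In groups of 3, they were sampled after 3 h (T27), at the end (T30), and in recovery at T36, T42 and T48, then at T54, T60, T66, T72 and T78, and finally at T192 and T198. The 26 undisturbed control mice (NSD) were sampled 0 h (n = 8), 3 h (n = 3), 6 h (n = 5), 12 h (n = 5) and 18 h (n = 5) after lights on, called zeitgeber times ZT0, ZT3, ZT6, ZT12 and ZT18. The mice of both kinds were aged 11 to 12 weeks, ate freely and had 12 h light and 12 h dark. Strain and sex are not given in the labels. Each SD group was set against the NSD group of its own time of day. The labels split the mice into 2 batches, and every SD group lies in 1 of them.

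Initiation of translation joins the small ribosomal subunit, the initiator tRNA and the start codon of an mRNA. In short, eIF2 carries the initiator tRNA, eIF2B reloads eIF2 with GTP, eIF3 is the large scaffold on the small subunit, and eIF1 and eIF1A guard the choice of the start codon. The cap of the mRNA is bound by eIF4E, which eIF4G ties to the helicase eIF4A and to eIF3. This machinery has a pair of well-known brakes: the eIF2alpha kinases, which block the reloading of eIF2 under stress, and the 4E-BPs, which hold eIF4E away from eIF4G until mTOR phosphorylates them. Both act on proteins, and none of the values here measures protein, phosphorylation or translation. In neurons, local control of initiation is best known from work on synaptic plasticity and memory, and in liver from the response to feeding.

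The starts of 43 members were matched to RefSeq promoters on build GRCm38.p6, in 56 windows from 250 bases before to 50 bases after a start. The E-box core CACGTG, on either strand, stood in 12 of the 56 windows (21.4%), in 10 genes, and in 7.15% of all 32851 windows of the table. Windows of a gene can overlap, so a motif can be counted more than once. The E-boxes at -74 and -185 from neighbouring Eif5a starts are the same site. All windows of the table were counted in this way. The cyclic AMP response element TGACGTCA stood in 0 of the 56 windows, against 1.79% of all windows. TGATGNAA, the core bound by C/EBP and ATF factors, stood in 1 window (1.79%), of Eif2s3x, against 3.97% of all. GAANNTTC, a heat shock element core, stood in 5 windows (8.93%), against 7.86% of all. Of the 17 members with a promoter that changed in cortex at T27, T30 or T36, 5 held an E-box, as did 5 of the 26 that did not pass the test there. Bases upstream of the start are shown for the member that rose most clearly in cortex (Eif4ebp2), the one that fell most clearly (Eif4b) and 3 that rose and hold the motif (Eif4a1, Eif4g1 and Eif5a). They run 5′ to 3′ along the gene's own strand, with the E-box in capitals; the first 2 hold none. For Eif4g1 and Eif5a the start shown lies inside the annotated gene, and the table holds several windows for Eif5a.
Eif4ebp2 (chr10:61452670-61452919, minus strand): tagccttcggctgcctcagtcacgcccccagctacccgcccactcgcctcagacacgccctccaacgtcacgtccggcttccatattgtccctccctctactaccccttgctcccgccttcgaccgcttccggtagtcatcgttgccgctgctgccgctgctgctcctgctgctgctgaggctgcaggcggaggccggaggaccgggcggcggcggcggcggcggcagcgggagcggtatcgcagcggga
Eif4b (chr15:102073523-102073772, plus strand): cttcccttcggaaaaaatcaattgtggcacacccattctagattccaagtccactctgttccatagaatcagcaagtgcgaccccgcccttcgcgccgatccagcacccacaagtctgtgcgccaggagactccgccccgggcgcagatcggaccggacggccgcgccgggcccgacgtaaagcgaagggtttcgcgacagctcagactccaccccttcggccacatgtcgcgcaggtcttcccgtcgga
Eif4a1 (chr11:69672424-69672673, minus strand): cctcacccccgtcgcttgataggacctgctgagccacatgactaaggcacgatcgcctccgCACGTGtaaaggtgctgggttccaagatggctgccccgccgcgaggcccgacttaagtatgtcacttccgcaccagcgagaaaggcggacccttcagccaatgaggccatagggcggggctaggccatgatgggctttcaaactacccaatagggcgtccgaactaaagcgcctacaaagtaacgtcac
Eif4g1 (chr16:20672607-20672716, plus strand): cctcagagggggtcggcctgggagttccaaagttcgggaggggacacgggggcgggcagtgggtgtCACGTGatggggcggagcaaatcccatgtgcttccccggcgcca
Eif5a (chr11:69921387-69921506, minus strand): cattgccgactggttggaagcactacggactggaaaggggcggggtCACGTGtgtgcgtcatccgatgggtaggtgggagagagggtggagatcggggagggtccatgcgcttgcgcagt

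The deposited tables gave no read counts, so the depth behind each value is unknown. The antilogs summed to 979177 to 1020370 per library in cortex and 919743 to 1070240 in liver. Neuronal markers led the cortex libraries, and their summed level was 13.01 to 13.04 at T30, against 13.03 to 13.15 at ZT6 (log2 of summed CPM). Hepatocyte markers led the liver libraries, with 16.62 to 16.74 at T30 and 16.52 to 16.78 at ZT6. In cortex the choroid plexus markers differed between groups: their sum was 2.24 to 2.66 at T27 and 3.02 to 6.94 at ZT3, and 1.73 to 2.47 at T30 and 1.51 to 2.83 at ZT6; 2 of the 3 measured were lower at T27. Meningeal and fibroblast markers summed to 5.65 to 5.80 at T27 and 5.90 to 6.34 at ZT3, with 1 of 6 lower, and the liver stellate cell list, which shares genes with it, to 7.23 to 7.31 and 7.40 to 7.53, with 1 of 5 lower. At T36, 3 of 6 endothelial markers were higher, and their sum was 7.49 to 7.61, against 7.23 to 7.48 at ZT12. At T30 in cortex, 2 of 7 neuron markers, 2 of 6 microglial markers and 1 of 6 oligodendrocyte markers were lower, and 1 microglial marker was higher. Of all genes, 16.8% were lower and 15.7% higher there. The part of these tissue differences in the values below was not tested. In bulk tissue, fewer cells of a type and less RNA per cell cannot be told apart.

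In cortex, deprivation moved a minority of the initiation factors by small amounts, and in both directions. After 3 h, 8 of 53 members passed the test (adjusted p under 0.05), 7 of them higher and 1 lower, which is 15.1% of the members and compares with 16.4% of all named genes. At the end of 6 h it was 14 of 53 (26.4%), 7 higher and 7 lower, against 32.4% of all genes (15.7% higher and 16.8% lower). At T36, 6 h into recovery, it was 8 of 53 (15.1%), 6 higher and 2 lower, against 12.5% of all genes. These shares lie near the background, so the family as a whole did not stand out by count. The median change of the members was 0.03 at T27, 0.02 at T30 and 0.01 at T36 (log2), and that of all genes was within 0.01 of 0 at each of these times. In all, 20 members changed at one or more of these times, 13 upward and 8 downward, with Eif1b in both lists. Eif3b was the one member called at T27, T30 and T36, and Eif4a1, Eif4b, Eif4e2 and Eif4ebp2 were also called at both T27 and T30. With batch 1 libraries alone, 8, 12 and 7 members passed at T27, T30 and T36, and with only the 2 groups compared, 7, 10 and 5.

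**Figure D1:**
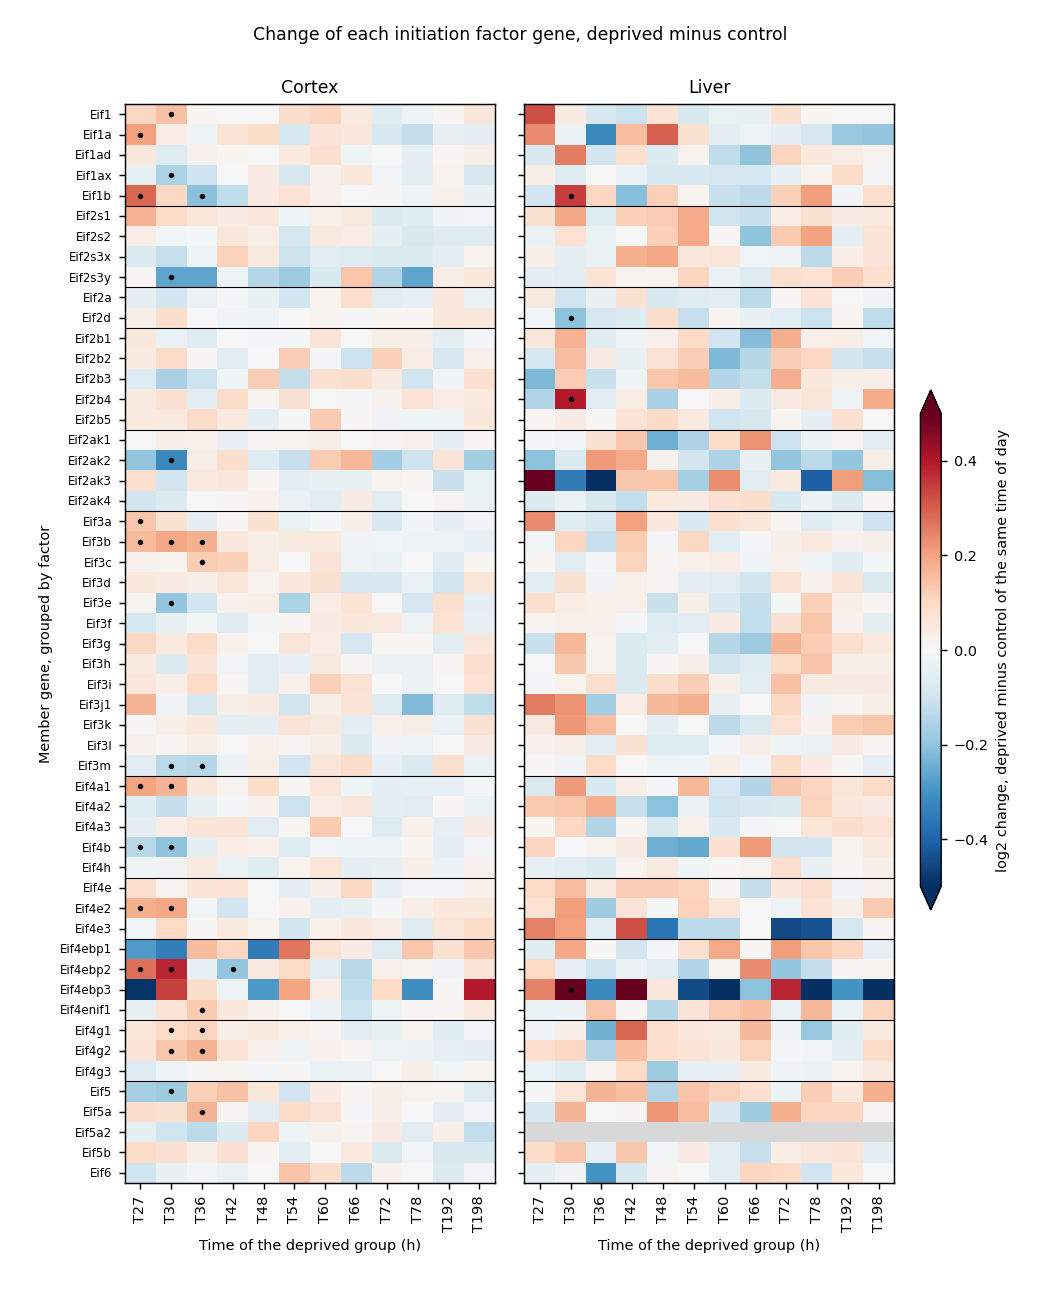
Change of each of the 53 initiation factor genes in cortex (left) and liver (right), SD minus NSD of the same time of day, in log2 units by time of the SD group, with dots on changes that passed the test. The dots lie at T27 to T36 in cortex, with 1 at T42, and at T30 in liver; Eif5a2 (grey) is not in the liver table.

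The brake on eIF4E gave the clearest change of the family. Eif4ebp2, which encodes the main 4E-BP of brain (chromosome 10, 61428491 to 61452661, minus strand, GRCm38), had 6.37, 6.20 and 6.42 log2 CPM in the T27 libraries, against 6.08, 6.03 and 6.06 at ZT3. Every deprived cortex lay above every control, and the change was 0.27 (SE 0.05, adjusted p = 7.7e-05). At T30 its levels were 6.32, 6.31 and 6.34 log2 CPM, against 6.01, 5.87, 5.98, 5.99 and 5.86 at ZT6. The groups were again apart, by 0.38 (SE 0.046, adjusted p = 8.0e-09), a 1.30-fold higher level. At T36 the level was back among the controls, with 5.99 ± 0.06 in SD and 6.03 ± 0.04 in NSD mice (± standard deviation here and below, n = 3 and 5). At T42 it was lower: 6.05, 6.15 and 6.21 log2 CPM in SD mice, against 6.32, 6.40, 6.34, 6.31 and 6.30 at ZT18. That was a fall of 0.19 (adjusted p = 0.021), the single member call of that time against 1.03% of all genes (1.89% of the members). It was lost without any one of T42S2, T42S4 and the control T18N3 (adjusted p up to 0.19), and with batch 1 alone. At T66, the next night, the change was -0.14 in the same direction and missed the threshold (adjusted p = 0.36).

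The other 4E-BP genes were far less abundant in cortex and did not pass the test. Eif4ebp1 averaged 1.21 ± 0.17 log2 CPM at T30 and 1.56 ± 0.10 at ZT6, a difference of -0.35 that missed the threshold (adjusted p = 0.051). Eif4ebp3 differed by 0.34 (adjusted p = 0.36) at levels below 0 on the log2 scale. Eif4enif1, which encodes the transporter 4E-T that carries eIF4E into the nucleus, rose by 0.13 at T36 (adjusted p = 0.013), a call lost without T36S1 (adjusted p = 0.15).

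Among the cap-binding proteins, the atypical one rose. Eif4e2, which encodes 4EHP, a cap-binding protein that does not engage eIF4G and acts as a repressor, had 5.84, 5.85 and 5.91 log2 CPM at T27, against 5.71, 5.68 and 5.67 at ZT3. Its T30 levels were 5.85, 5.87 and 5.83, against 5.70, 5.66, 5.66, 5.61 and 5.66 at ZT6. Neither pair of groups overlapped, and the changes were 0.18 (adjusted p = 0.0015) and 0.19 (SE 0.038, adjusted p = 6.4e-05). Eif4e itself differed by 0.01 at T30 (adjusted p = 0.82), and Eif4e3, the third member, by 0.10 (adjusted p = 0.27).

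**Figure D2:**
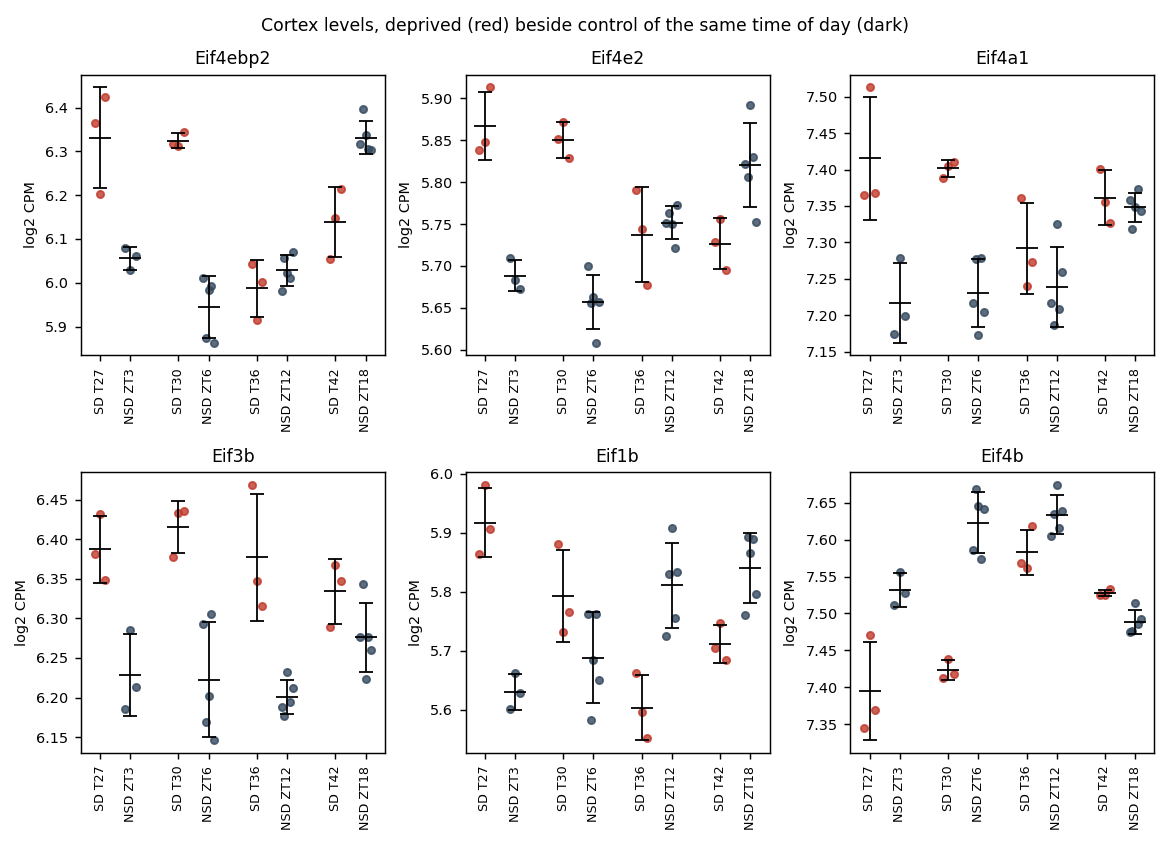
Cortex levels (log2 CPM) of 6 initiation factor genes, with SD groups in red beside the NSD group of the same time of day in dark; points are mice and bars are means ± standard deviation. Eif4ebp2, Eif4e2, Eif4a1 and Eif3b lie above the controls at T27 and T30, Eif4b lies below them, and Eif1b lies above at T27 and below at T36.

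The helicase gene Eif4a1 and the helper gene Eif4b moved in opposite directions. Eif4a1, which encodes an eIF4A helicase (chromosome 11), had 7.37, 7.51 and 7.37 log2 CPM at T27, against 7.17, 7.28 and 7.20 at ZT3. At T30 it had 7.39, 7.41 and 7.41, against 7.22, 7.28, 7.17, 7.28 and 7.21 at ZT6. The deprived libraries were above the controls both times, by 0.20 (adjusted p = 0.00029) and 0.17 (SE 0.036, adjusted p = 0.00021). Of the 50-base stretches of its transcripts, 28.4% also occur in another annotated gene, among them a processed copy, so reads may be split between them. Eif4b, which encodes the helper that raises eIF4A's activity (chromosome 15), had 7.34, 7.47 and 7.37 log2 CPM at T27, against 7.51, 7.56 and 7.53 at ZT3. Its T30 levels were 7.41, 7.44 and 7.42, against 7.59, 7.67, 7.65, 7.57 and 7.64 at ZT6. All deprived libraries lay below all controls, and it fell by 0.14 (adjusted p = 0.0035) and by 0.20 (SE 0.032, adjusted p = 2.1e-06). The T27 call was lost with only the 2 groups compared. Eif4a2, the second and in cortex more abundant helicase gene, was at 8.91 ± 0.02 log2 CPM at T30 and 9.03 ± 0.05 at ZT6. Its difference of -0.12 did not pass (adjusted p = 0.055). Eif4h, the other helper, differed by -0.02 (adjusted p = 0.74).

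Of the 3 eIF4G scaffold genes, the same 2 rose at T30 and at T36, where 15.7% and 6.9% of all genes were higher. Eif4g1, which encodes the main eIF4G, had 8.32, 8.42 and 8.38 log2 CPM at T30, against 8.27, 8.29, 8.22, 8.31 and 8.28 at ZT6. This difference of 0.10 (SE 0.028, adjusted p = 0.0049) was lost without T30S3 (adjusted p = 0.067). At T36 the levels were 8.37, 8.34 and 8.32, against 8.18, 8.21, 8.27, 8.25 and 8.26 at ZT12, a rise of 0.11 (adjusted p = 0.0042). Eif4g2, which encodes DAP5, an eIF4G relative that lacks the eIF4E-binding part, had 9.65, 9.61 and 9.67 log2 CPM at T30, against 9.45, 9.53, 9.50, 9.48 and 9.58 at ZT6. It rose by 0.14 (adjusted p = 0.0059) there and by 0.17 (adjusted p = 0.0025) at T36, where the call was lost narrowly without T36S1 (adjusted p = 0.051). For both genes the SD libraries lay above all controls at both times. With only the 2 groups compared, the calls of Eif4g1 at both times and of Eif4g2 at T30 were lost. Eif4g3 differed by -0.02 at T30 (adjusted p = 0.61).

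Within eIF3, 3 of 13 members changed in cortex at T30, against 32.4% of all genes. Eif3b, which encodes a subunit conserved down to budding yeast (chromosome 5), had 6.38, 6.43 and 6.44 log2 CPM at T30, against 6.29, 6.17, 6.20, 6.31 and 6.15 at ZT6. At T36 it had 6.47, 6.35 and 6.32, against 6.19, 6.18, 6.23, 6.19 and 6.21 at ZT12. The rises were 0.19 (SE 0.037, adjusted p = 4.6e-05) and 0.18 (adjusted p = 0.00060), after 0.16 at T27 (adjusted p = 0.0035), and the groups were apart each time. Eif3e, which encodes a subunit that budding yeast lacks, went the other way: 5.79, 5.76 and 5.73 log2 CPM at T30, against 5.90, 5.98, 5.99, 5.94 and 5.97 at ZT6. It was lower in all 3 deprived mice, by -0.19 (SE 0.057, adjusted p = 0.0067). Its level in NSD mice at ZT18 was 5.78 ± 0.05, close to the T30 level. Eif3m fell by 0.13 at T30 (adjusted p = 0.015) and by 0.14 at T36 (adjusted p = 0.023), with overlapping libraries at T30. Eif3c rose by 0.13 at T36 (adjusted p = 0.026). Eif3a, the largest subunit, had 7.49, 7.60 and 7.49 log2 CPM at T27, against 7.36, 7.43 and 7.38 at ZT3. Those groups did not overlap, but the rise of 0.14 (adjusted p = 0.031) was lost without T27S3, T3N2 or T3N4 and with libraries centred on their medians. The calls of Eif3m and Eif3c were each lost without any of several single libraries.

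Of the 5 eIF1 and eIF1A genes, which act in start codon selection, 2 passed in cortex at T27 (both higher), 2 at T30 (1 higher and 1 lower) and 1 at T36 (lower). The shares of all genes that passed at these times were 16.4%, 32.4% and 12.5%. Eif1b, a close relative of Eif1, had 5.86, 5.98 and 5.91 log2 CPM at T27, against 5.60, 5.66 and 5.63 at ZT3. At T36 it had 5.66, 5.60 and 5.55, against 5.73, 5.83, 5.91, 5.76 and 5.83 at ZT12. All deprived libraries were above the controls at T27, by 0.29 (SE 0.054, adjusted p = 0.00015), and all were below them at T36, by -0.21 (adjusted p = 0.0032). At T30, between these times, the difference was 0.10 and did not pass (adjusted p = 0.10). Eif1a had 5.32, 5.40 and 5.26 log2 CPM at T27, against 5.08, 5.15 and 5.13 at ZT3. Its rise of 0.20 (adjusted p = 0.023) was lost without any one of T27S2, T27S3, T3N2 and T3N4 (adjusted p up to 0.12). Eif1 rose by 0.15 at T30 (adjusted p = 0.0092), a call lost with batch 1 alone. Eif1ax, the X-linked relative of Eif1a, fell by 0.16 (adjusted p = 0.018), which was lost without T30S4 or T6N4.

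Of the 4 eIF2 genes and the 4 genes of eIF2alpha kinases, 1 each passed in cortex at T30, both lower, and 0 passed at T27 or T36. Of the 5 eIF2B subunit genes, 0 passed in cortex at T27, T30 or T36. Of all genes, 16.4% passed at T27, 32.4% at T30 and 12.5% at T36. Eif2s1, which encodes eIF2alpha, differed by 0.09 at T30 (adjusted p = 0.29). Among the 4 kinases of eIF2alpha, Eif2ak2, which encodes the double-stranded RNA sensor PKR, had 2.67, 2.90 and 2.86 log2 CPM at T30, against 3.19, 3.21, 3.11, 2.94 and 3.21 at ZT6. The deprived mice were lower, by -0.32 (SE 0.12, adjusted p = 0.034), at a low level, and the call was lost without any of 5 single libraries and with batch 1 alone. Eif2ak1 (the heme-regulated kinase) differed by 0.03 (adjusted p = 0.57), Eif2ak3 (PERK, the endoplasmic reticulum stress kinase) by -0.10 (adjusted p = 0.074) and Eif2ak4 (GCN2, which senses uncharged tRNA) by -0.07 (adjusted p = 0.36). Eif2s3y, the Y-linked eIF2gamma gene, was measured in every library (5.36 to 6.13 log2 CPM in cortex) and fell by 0.27 at T30 (adjusted p = 0.030) with overlapping libraries, while its X-linked partner Eif2s3x differed by -0.12 (adjusted p = 0.099). The call of Eif2s3y was lost without T30S3, T30S4, T6N2 or T6N4.

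The 5 genes of eIF5, eIF5A, eIF5B and eIF6 gave 2 calls in cortex, 1 at T30 and 1 at T36, against 32.4% and 12.5% of all genes. Eif5, the GTPase-activating partner of eIF2, fell by 0.18 at T30 (adjusted p = 0.024) with overlapping libraries, a call lost without any of 5 single libraries. Eif5a, which encodes the hypusine-bearing factor that also aids elongation, rose by 0.17 at T36 (adjusted p = 0.0014), with all SD libraries above the controls. Eif5b (subunit joining) and Eif6 (which keeps the large subunit apart) differed by 0.07 and -0.04 at T30 (adjusted p = 0.29 and 0.68).

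From T48 on, 0 of 53 members passed in cortex at any of the 8 times, against 1.49% of all genes at T48 and 0% at each later time. At an unadjusted p under 0.05 there were 1 to 7 members per time. Without the single library T54S4, 4 members (Eif6, Eif1ax, Eif5a and Eif3e) passed at T54.

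Several of the cortical members that changed at T30 had at that time a level like that of undisturbed mice at ZT18, in the dark phase when mice are mostly awake. Eif4ebp2 was at 6.32 ± 0.02 log2 CPM at T30 and 6.33 ± 0.04 at ZT18, and at 5.95 ± 0.07 at ZT6. Eif4e2 was at 5.85 ± 0.02 at T30 and 5.82 ± 0.05 at ZT18, and at 5.66 ± 0.03 at ZT6. For Eif4b these levels were 7.42 ± 0.01 and 7.49 ± 0.02, and 7.62 ± 0.04 at ZT6, so that the deprived mice lay below the ZT18 mice too. Eif3b, at 6.42 ± 0.03 at T30, lay above both its ZT18 level of 6.28 ± 0.04 and its ZT6 level of 6.22 ± 0.07. Both differences from ZT6 use the same 5 control mice, and T30 was not tested against ZT18.

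In liver the same deprivation gave fewer calls among these genes. At T30, 4 of 52 members passed (7.69%), 3 higher and 1 lower, against 15.8% of all genes, and 12 members had an unadjusted p under 0.05. At T27 it was 0 of 52 against 1.5% of all genes, and at T36 0 against 3.16%. At T42 and T48 it was 0, against 0% and 0.015% of all genes, and at the 7 later times also 0, against 0% each. The unadjusted count was 4 at T27, 5 at T36 and 0 to 5 at the other times. The median change of the members at T30 was 0.05 (log2), and that of all genes 0.00. The liver values had been adjusted before deposit for an unlabelled factor of 3 levels, so these p-values are too small; with that factor as a covariate 3 of the 4 calls at T30 held (12.8% of all genes). With batch 1 libraries alone, or with only the 2 groups compared, 0 of the 4 held.

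Eif2b4, which encodes the delta subunit of eIF2B (chromosome 5, 31187558 to 31193430, minus strand, GRCm38), had 4.87, 4.71 and 4.89 log2 CPM in the T30 livers, against 4.39, 4.33, 4.67, 4.21 and 4.43 at ZT6. All deprived livers were above all controls, by 0.40 (SE 0.10, adjusted p = 0.0050), a 1.32-fold higher level, and the call held with the unlabelled factor (adjusted p = 0.010) and without each of the 8 libraries in turn. Its neighbour Snx17 shares 5.37% of its 50-base stretches and differed by 0.22 (adjusted p = 0.16). The other 4 eIF2B genes did not pass.

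Eif4ebp3, which encodes the third 4E-BP, had 1.25, 0.73 and 0.87 log2 CPM in the T30 livers, against -0.01, -0.18, -0.83, -0.98 and 0.54 at ZT6. The groups did not overlap, and the level was 2.52-fold higher (1.33, SE 0.38, adjusted p = 0.012), although the call was lost without T30S1 (adjusted p = 0.097). This gene is uncertain, since 65.5% of the 50-base stretches of its transcripts also occur in an annotated readthrough transcript with Ankhd1, the gene upstream. Ankhd1 itself was at 6.08 ± 0.04 log2 CPM at T30 and 6.08 ± 0.06 at ZT6 (adjusted p = 0.92). At T36 the Eif4ebp3 levels were 1.41, 1.16 and 1.45, against 1.55, 0.71, 1.48, 2.19 and 2.82 at ZT12, which overlap (adjusted p = 0.71).

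The other calls were small. Eif1b had 3.83, 3.47 and 3.68 log2 CPM at T30, against 3.36, 3.34, 3.49, 3.25 and 3.23 at ZT6. With 1 control above the lowest SD liver, the difference was 0.35 (SE 0.11, adjusted p = 0.025), lost without any of 4 single libraries. Eif2d, which encodes an alternative carrier of the initiator tRNA, had 4.87, 4.83 and 4.88 log2 CPM, against 5.04, 5.03, 5.05, 5.06 and 5.03. The groups were apart, and it was lower by -0.21 (SE 0.074, adjusted p = 0.048), but the call was lost without each of the 8 libraries in turn and with the unlabelled factor (adjusted p = 0.069). The 5 ZT6 livers had a standard deviation of 0.01 for this gene, against 0.18 among the 5 ZT18 livers. Eif4ebp2, the clearest cortical change, had 7.99, 8.27 and 8.15 log2 CPM in the T30 livers, against 8.29, 8.03, 8.07, 8.20 and 8.32 at ZT6, which overlap (adjusted p = 0.85). At T27, Eif2ak3 differed by 0.61 (adjusted p = 0.16) and Eif1 by 0.32 (adjusted p = 0.20) and neither passed. Marker sums of bile duct were 5.23 to 5.36 at T30 and 5.61 to 5.97 at ZT6, and those of stellate cells 7.46 to 8.28 and 7.99 to 8.56; their part in these results was not tested.

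**Figure D3:**
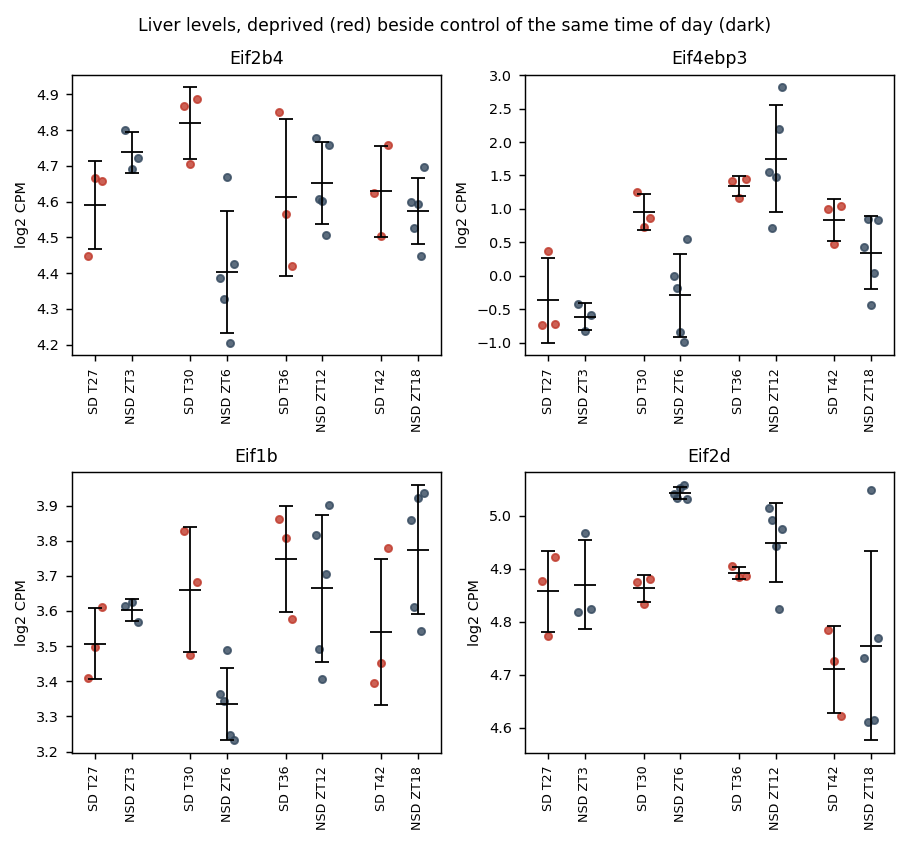
Liver levels (log2 CPM) of the 4 initiation factor genes that passed the test at T30, with SD groups in red beside the NSD group of the same time of day in dark; points are mice and bars are means ± standard deviation. At T30 Eif2b4, Eif4ebp3 and Eif1b are higher in SD than in NSD livers and Eif2d is lower.

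No member passed in both tissues at T30. The members' shares there were 26.4% in cortex and 7.69% in liver, against 32.4% and 15.8% of all genes. The share of all genes that passed in both tissues was not counted. A call in 1 tissue alone is no test of a difference, so the difference between the tissues was tested directly on the 12194 genes of both tables. The change in cortex differed from that in liver for 4 members at T30, against 12.2% of all genes, and for 0 at T27, against 2.12%. Eif4ebp2 rose by 0.42 more in cortex than in liver (SE 0.12, adjusted p = 0.0089). Eif2d differed by 0.29 (SE 0.087, adjusted p = 0.015): its cortex levels were 5.02, 5.03 and 5.10 log2 CPM in SD mice, against 5.08, 4.91, 4.94, 4.96 and 4.93 in NSD mice, which overlap, while it was lower in the SD livers.

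Both other members differed in the negative direction. Eif4a2 had 8.94, 8.90 and 8.89 log2 CPM in SD cortex, against 8.95, 9.03, 9.07, 9.01 and 9.07 in NSD cortex. In liver it had 8.43, 8.10 and 8.30 in SD mice, against 8.05, 8.31, 7.91, 8.14 and 8.14 in NSD mice. It passed in neither tissue alone, and the changes differed by -0.26 (SE 0.086, adjusted p = 0.033). Eif3h, an eIF3 subunit, had 6.11, 6.07 and 6.04 log2 CPM in SD cortex, against 6.17, 6.15, 6.10, 6.17 and 6.14 in NSD cortex. In liver it had 6.35, 6.14 and 6.14, against 6.00, 6.07, 6.07, 6.09 and 6.07. The difference of -0.21 (SE 0.072, adjusted p = 0.045) was lost with the mouse as a replicate block (adjusted p = 0.11). The calls of Eif4a2 and Eif3h were lost with libraries centred on their medians, which left 2, and without T30S1 there were 0 calls.

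**Figure D4:**
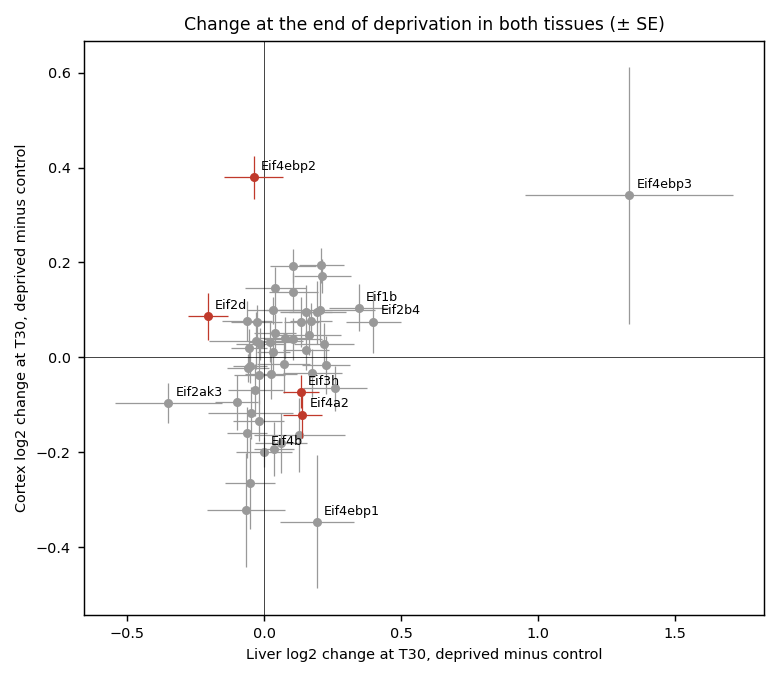
Change at T30 in liver (x axis) and in cortex (y axis) of the 52 members of both tables, in log2 units, SD minus NSD, with bars of 1 SE. Red points are the 4 members whose changes differed between the tissues; Eif4ebp2 stands high in cortex near 0 in liver, and Eif4ebp3 lies far right with wide bars.

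In undisturbed mice the cortical members varied little over the day. The F test over the 5 times called 20 of 53 members in cortex, against 41.9% of all genes. The distance between the highest and lowest time mean of these members was 0.09 to 0.39, with a median of 0.15 (log2). The median over all cortex genes that passed this test was 0.28. Eif4ebp2 had the largest range, 0.39: its lowest, median and highest library was 6.07, 6.21 and 6.30 log2 CPM at ZT0, and its mean was 6.06 ± 0.03 at ZT3, 5.95 ± 0.07 at ZT6, 6.03 ± 0.04 at ZT12 and 6.33 ± 0.04 at ZT18 (adjusted p = 4.5e-11). All 5 libraries of ZT18 lay above those of ZT3, ZT6 and ZT12. Eif2ak2 had 3.13 ± 0.11 log2 CPM at ZT6 and 2.76 ± 0.18 at ZT18 (range 0.37, adjusted p = 0.026). Eif2b3, the gamma subunit of eIF2B, had 3.46 ± 0.10 at ZT6, 3.50 ± 0.13 at ZT12 and 3.19 ± 0.05 at ZT18 (range 0.31, adjusted p = 0.00041), and Eif5 had 8.07 ± 0.12 at ZT6 and 7.81 ± 0.09 at ZT18 (adjusted p = 1.6e-05). With batch 1 libraries alone, 9 members passed in cortex.

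In liver, the baseline test called 30 of 52 members, against 52% of all genes, or 29 with the unlabelled factor and 9 with batch 1 libraries alone. The median range of the 30 was 0.39 (log2), beside 0.53 over all liver genes that passed this test. The tissues' ranges were not tested against each other. Of these 30, 20 had their highest mean at ZT12, the start of the dark phase when mice feed, and 0 had their lowest there. Among all called liver genes, 29.3% were highest and 29.6% lowest at ZT12. The 20 include genes of every step, such as Eif4a1 (8.32 ± 0.11 log2 CPM at ZT12 and 7.85 ± 0.06 at ZT6), Eif5a (8.25 ± 0.16 at ZT12 and 7.82 ± 0.05 at ZT0), Eif2b1, Eif4g1 and Eif6. Eif4ebp3 had the largest range, 2.35 (5.10-fold, adjusted p = 3.2e-08). Its lowest, median and highest library at ZT0 was -1.10, -0.53 and -0.02 log2 CPM, and the ZT12 libraries had 1.55, 0.71, 1.48, 2.19 and 2.82. At ZT18 they had 0.43, 0.85, -0.44, 0.05 and 0.83, with a mean between those of ZT0 and ZT12 and libraries that overlapped both, and its T30 level of 0.95 ± 0.27 in SD livers lay between the ZT18 and ZT12 means. Ankhd1 had a baseline range of 0.35 in liver. Eif4e3 had 2.66, 2.42, 2.59, 2.48 and 2.54 log2 CPM at ZT12, above all libraries of the other times, and 1.80 ± 0.33 at ZT3 (adjusted p = 0.0070). Eif4b ran differently from most: it was highest at ZT6, with 8.11, 8.22, 7.89, 8.15 and 8.22, and lowest at ZT18, with 7.32, 7.55, 7.35, 7.53 and 7.45 (range 0.68, adjusted p = 8.2e-08).

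**Figure D5:**
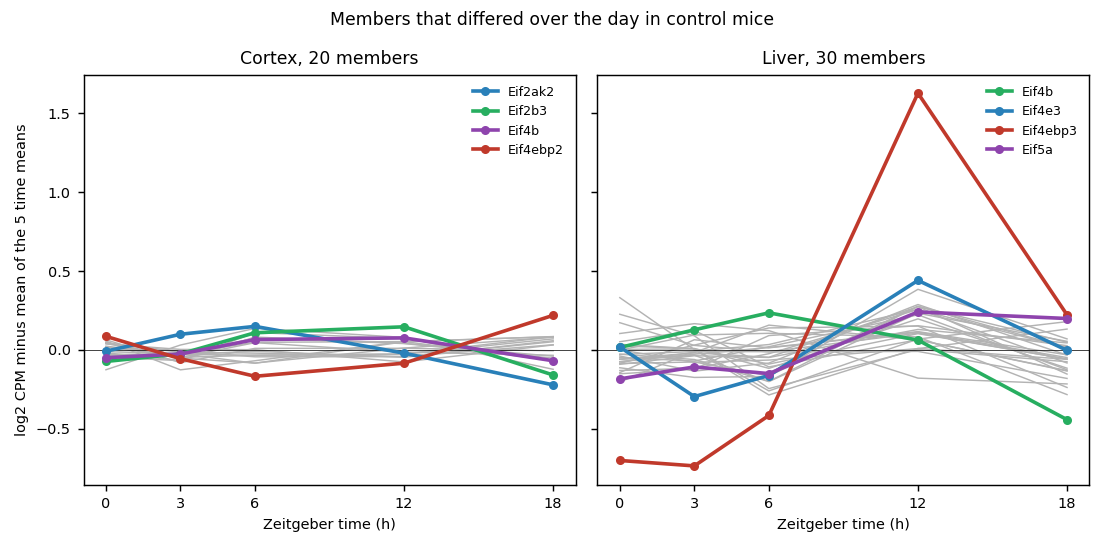
Time course in undisturbed mice of the members that passed the baseline test in cortex (20) and liver (30), as log2 CPM minus the mean of the 5 time means, against zeitgeber time in h. Coloured lines mark 4 members per tissue; in liver Eif4ebp3 peaks at ZT12, whereas Eif4b falls to its lowest level at ZT18.

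Per length, the most abundant helicase and scaffold genes differed between the tissues, but by CPM alone Eif4a2 and Eif4g2 led in both. In NSD livers the means were 8.08 log2 CPM for Eif4a2, 8.04 for Eif4a1, 9.07 for Eif4g2 and 8.93 for Eif4g1. The length used pools the exons of all annotated transcripts of a gene. The values that follow are levels as CPM per kilobase of annotated exon, as means ± standard deviation over the 26 NSD mice of a tissue, from tables that were normalised separately. Of the 4E-BP genes, Eif4ebp2 was the most abundant in cortex, with 12.1 ± 1.25, against 1.36 ± 0.12 for Eif4ebp1 and 0.78 ± 0.17 for Eif4ebp3. In liver the order was the same, with 46.3 ± 4.92, 9.47 ± 1.71 and 1.94 ± 2.00 CPM per kilobase. Of the helicases, Eif4a2 led in cortex (92.9 ± 4.79, against 35.6 ± 1.53 for Eif4a1), and in liver Eif4a1 had 61.4 ± 7.70 and Eif4a2 50.9 ± 3.62. Of the eIF4G genes, Eif4g2 led in cortex (71.7 ± 2.82, then Eif4g1 with 42.8 ± 1.38 and Eif4g3 with 36.3 ± 0.60), and in liver the order was Eif4g1 (67.3 ± 7.72), Eif4g2 (53.2 ± 4.81) and Eif4g3 (6.18 ± 0.43). Eif1b stood at 48.7 ± 3.30 in cortex and 10.8 ± 1.44 in liver, beside Eif1 at 64.8 ± 3.08 and 68.1 ± 7.90. Within a tissue, the levels of neighbours in these orders differed by more than the standard deviation of either gene.

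Around these factors, lists of genes of the same pathway were counted in the same fits. Of 27 measured partners in scanning and start codon choice, 2 rose and 0 fell at T27 in cortex, where 8.59% of all genes rose and 7.84% fell. At T30, 7 rose and 5 fell; of all genes, 15.7% rose and 16.8% fell, the background for the T30 counts that follow. Ppp1r15b, which targets a phosphatase to eIF2alpha, rose by 0.28, and Dhx29, a scanning helicase, by 0.25; Denr, a re-initiation factor, fell by 0.21. Of 16 elongation and termination genes, 2 rose and 1 fell at T30, among them Eef2k, the kinase that inhibits elongation factor 2, which fell by 0.27. Of 28 genes of the mTOR pathway, 7 rose and 4 fell: Irs2 (insulin receptor substrate) by 1.00 and Rheb (the activator of mTOR) by 0.23 upward, and Rragd (a Rag GTPase) by -0.25. Of 33 targets of the integrated stress response, 8 rose and 2 fell, with Atf4 0.28 and Gpt2 0.53 higher and Asns (asparagine synthetase) 0.14 lower. Of 17 sensors and targets of endoplasmic reticulum stress, 12 rose and 1 fell, with Hspa5 (the chaperone BiP) 1.08 higher. The median change was 0.03, 0.06, 0.00, 0.06 and 0.21 for these 5 lists in turn, against -0.01 over all genes.

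In liver at T30, where 7.84% of all genes rose and 7.95% fell, 2 of 27 start codon partners rose and 0 fell, and of 15 elongation genes 1 rose (Eef1e1, by 0.76). In the mTOR list 2 rose and 1 fell of 28, with Tsc1, a brake on mTOR, 0.44 lower. Of 32 stress response targets 3 rose and 2 fell, with Trib3 1.83 lower and Atf5 0.54 higher. Of 17 genes of endoplasmic reticulum stress, 5 rose and 0 fell, among them Hspa5 (0.91 higher) and Xbp1 (0.78 higher).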

How the data were processed

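RNA of cortex and liver of the same 62 mice was measured by RNA-seq. Per the labels' protocols, liver RNA went through miRNeasy and TruSeq Stranded mRNA kits and single-end HiSeq sequencing; the cortex libraries are labelled as re-analysed from an earlier study. The submitters' processing notes name fastp, STAR 2.7.0e, edgeR, mm10 and GRCm38. Each tissue has 1 deposited table, of log2 CPM values, normalised on its own. They had been batch-adjusted: within groups, 1 dimension was removed in cortex and 2 in liver (levels of 50, 8 and 4 libraries). Unnamed entries (77 and 35, with 0.0618% and 0.0337% of the signal) were left out.

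Values were tested as deposited with limma 3.58.1 in R 4.3.3 (lmFit, eBayes with a mean trend; 17 groups and batch, 44 residual degrees of freedom, two-sided), adjusted by Benjamini-Hochberg over all named genes per comparison, threshold 0.05. The baseline was an F test. The tissue difference was an interaction in a fit of both tissues. Alternatives were median centring, leaving out the lowest 20% of genes, a pseudocount of 1 CPM, batch 1 alone, only the 2 groups compared, the liver factor, the mouse as a replicate block, and each library left out. Pairing comes from the labels (both tissues of a mouse); deviations of a mouse correlated between tissues from -0.21 to 0.23, median 0.03. The code was tested on simulated data. Fold changes include the batch term. The labels do not say whether mice of a group were independent beyond being separate animals.

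The members and gene lists were chosen with earlier results of these data known. Every member could be named; values of each library are given for the 8 smallest p at T30 and 4 at T27 per tissue, the smallest p per recovery time, the 3 largest baseline ranges per tissue and the 4 smallest p of the tissue difference, and other members by their summary. Gene positions and exon lengths come from the GENCODE annotation of GRCm38, and promoters from RefSeq GRCm38.p6.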

Additional observations from a re-analysis of the deposited data

Results flagged for a closer look

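Eif4ebp2 (0.42), Eif2d (0.29), Eif3h (-0.21) and Eif4a2 (-0.26) changed differently in cortex and in liver at T30 by the test of the difference itself; the values are cortex change minus liver change in log2 units, and the adjusted p-values are 0.0089, 0.015, 0.045 and 0.033. In liver, the Eif3h level of the ZT6 control mouse J76N1 (6.0016 log2 CPM) lay apart from the other 4 of its group (6.0663 to 6.092), with a gap of 0.716 of the group's range. It was the 1 such library among 41 groups looked at, where chance marks about 1 in 20 groups. The tissue difference of Eif3h no longer passed without any one of 6 of the 8 mice compared, this mouse among them, nor with the unlabelled liver factor as a covariate (adjusted p = 0.057).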

How the results depend on the processing

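No call of a change or of a tissue difference changed direction under any alternative run. A baseline range has no direction, so the baseline calls could not. Some values near 0 that did not pass changed direction, such as the liver change of Eif4ebp2 at T30 (-0.11 to 0.04 over the alternatives). Between 2 groups alone, 5 members passed in cortex at T36 (8 with all groups), and 0 passed in cortex at T42 (1) and in liver at T30 (4). With libraries of 1 batch, 0 passed in cortex at T42 and in liver at T30, and 9 over the baseline in each tissue (20 in cortex, 30 in liver). Centring libraries left 2 tissue differences at T30 (4). With the mouse as a replicate block, 4 members differed between tissues at T30 and 0 at T27, with Eif2b4 (adjusted p = 0.032) in place of Eif3h. Leaving out 1 library gave 6 to 8 members in cortex at T27, 9 to 16 at T30 (9 without T30S4), 5 to 8 at T36 (5 without T36S1), 0 to 1 at T42, 0 to 4 from T54 to T198 and 13 to 21 over the baseline (13 without T18N2 or T18N3). In liver it gave 1 to 5 at T30 (1 without T30S1, 2 without J76N2, T30S4 or T6N4) and 27 to 33 over the baseline, and 0 at every other time. The tissue difference ranged from 0 to 6 at T30 (1 without T30S4 or T6N4) and was 0 at T27. Of 51 calls in cortex, 22 were kept under every alternative and left-out library, of 34 in liver 9, and of 4 tissue differences 0. The filter on low levels gave no value for Eif4ebp3. The causes were not tested. Depth is unknown, so counting error limits low genes such as Eif4ebp3 and Eif2ak2 by an unknown amount.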
